A study of Ovis aries with 16 samples.

Results

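BCAT1, PDXK, ACACA, ABHD5 and pgc1 are metabolic genes that were chosen by name, with earlier results of these arrays known, as genes of amino acid, vitamin B6 and lipid metabolism and of mitochondrial control. Their probes are 8 of the 15008 probes of the array, and the 5 genes stand among 1025 genes that could be named from 1656 probes. BCAT1 had been noticed by its difference between hypoxia + ketamine and hypoxia control, PDXK by its difference between hypoxia control and normoxia control, and pgc1 by its difference between normoxia + ketamine and normoxia control. Those contrasts, and every contrast sharing their arrays, are therefore described by their values, and so are all contrasts of ACACA and ABHD5, for which no choosing contrast is stated. How many of the 5 genes were called is printed once, beside the share of all probes, and nothing is read from it. The exception is PDXK between hypoxia + ketamine and normoxia + ketamine, which is tested although its hypoxia + ketamine arrays also entered a PDXK difference that was already known.

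The study asked what a short drop in oxygen does to gene expression in the frontal cerebral cortex of the late gestation fetal sheep, and whether ketamine given beforehand alters it. Ketamine is an anaesthetic that blocks the NMDA type of glutamate receptor. All fetuses carried indwelling vessel catheters and lived in conscious, standing ewes. In the normoxia control group (n = 3) the ewe breathed normally and the fetus received no ketamine, and in the normoxia + ketamine group (n = 4) the fetus received 3 mg/kg into a vein. In the hypoxia control group (n = 5) nitrogen was led into the maternal trachea for 30 min without ketamine, and in the hypoxia + ketamine group (n = 4) the same stimulus followed 3 mg/kg of ketamine. Cortex from each fetus was taken 24 h after the onset of the stimulus, that is after 23.5 h of recovery, and gave 1 array. All but 1 of the fetuses were twins by the study's methods. The labels do not say which shared a ewe, so the tests treat fetuses as independent. Hypoxia control replicate 1 carries that group in its title, while its other label fields describe normoxia with ketamine. It was kept in the group of its title. Group differences that use it are also given without it for the brightest probe of each of the 5 genes. This was not done for second probes or for differences between hypoxia effects. It is said where the call of a named list or marker gene depended on it.

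The arrays correlated with each other at 0.9841 to 0.9963 over all probes, and 69.2% to 76.9% of spots on an array were well above background. All 3 named neuron markers (GRIN1, NPY and SST) and 3 of 4 named astrocyte markers were well above background on every array, while none of the 9 oligodendrocyte markers on the list could be named among the probes. Calls below are at an unadjusted limma P under 0.05, the threshold in the study's methods. No probe of the 15008 reached an adjusted P under 0.05 in any of the 4 comparisons (limma, Benjamini-Hochberg), where the lowest adjusted P was 0.317 for hypoxia control against normoxia control, 0.263 for hypoxia + ketamine against hypoxia control, 1 for normoxia + ketamine against normoxia control and 0.431 for hypoxia + ketamine against normoxia + ketamine.

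The 5 genes act at separate points of metabolism. BCAT1 is the cytosolic aminotransferase that moves the amino group of leucine, isoleucine and valine to a keto acid and so feeds glutamate, and it needs pyridoxal phosphate, the active form of vitamin B6. PDXK is the kinase that makes pyridoxal phosphate from dietary forms of the vitamin. ACACA is the acetyl-CoA carboxylase that commits acetyl-CoA to fatty acid synthesis by forming malonyl-CoA, whereas ABHD5 (also called CGI-58) activates the lipase that opens stored triglyceride in lipid droplets. PGC-1, the protein behind the name pgc1, is a transcriptional coactivator known for its control of mitochondrial biogenesis and oxidative genes.

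The probes are shown because 3 of the genes have 2 of them, which overlap on the transcript to different degrees. Each is 60 bases long, read 5′ to 3′ as the array files give it, with positions counted on the transcript it was designed to. The files place none of them on a genome. The pgc1 probes lie at positions 724 to 783 (the main probe, with the higher mean signal) and 692 to 751 (the other probe) of a partial coding sequence and share 28 bases, in capitals here. The PPARGC1A probe was designed to a separate partial sequence of the same coactivator gene name at positions 259 to 318.
pgc1 main probe: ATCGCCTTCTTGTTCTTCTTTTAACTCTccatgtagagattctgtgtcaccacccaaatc
pgc1 other probe: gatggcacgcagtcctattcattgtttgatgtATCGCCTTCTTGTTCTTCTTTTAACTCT
PPARGC1A probe: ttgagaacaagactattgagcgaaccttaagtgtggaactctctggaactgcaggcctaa

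The ACACA probes start at positions 9145 (main) and 9147 (other) and share 58 of their 60 bases, so that they are close to 1 measurement made in duplicate. Their opening 30 bases are given with the shared part in capitals. The BCAT1 probes lie end to end, at positions 1889 to 1948 (main) and 1829 to 1888 (other), and share no base, so that they read separate stretches of 1 transcript. For PDXK the closing 30 bases are given, because the probe ends in a run of 6 A, in capitals. ABHD5 has a single probe at positions 1223 to 1282.
ACACA main probe, opening: acTTTAGGTCTTTATTGGACAGGACTCTTG
ACACA other probe, opening: TTTAGGTCTTTATTGGACAGGACTCTTGTC
BCAT1 main probe, opening: aattgtagagttttcctccataatcttagt
BCAT1 other probe, opening: tctaaacttgctcctagaagttttccttac
PDXK probe, closing: tgtgaaaaatgtaacgtctgccttAAAAAA

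All 8 probes were well above background on all 16 arrays and none was saturated on any. In hypoxia control against normoxia control the main probes of 3 of the 5 genes were called (PDXK and pgc1 higher, BCAT1 lower), where 7.98% of all probes were called, 3.34% as higher and 4.64% as lower. In hypoxia + ketamine against hypoxia control 2 of 5 were called (BCAT1 higher, PDXK lower), against 9.06% of all probes, 5.49% as higher and 3.56% as lower. In normoxia + ketamine against normoxia control 1 of 5 was called (pgc1 higher), against 2.31% of all probes, 0.88% as higher and 1.43% as lower. In hypoxia + ketamine against normoxia + ketamine none of the 5 was called, against 6.86% of all probes, 3.12% as higher and 3.74% as lower. BCAT1, PDXK and pgc1 were chosen on the first 3 of these comparisons. The PDXK call in hypoxia + ketamine against hypoxia control was lost in at least 3 alternative settings and without any 1 of 12 arrays. The pgc1 call in normoxia + ketamine against normoxia control was lost in 9 settings and without any 1 of 11 arrays. Median scaling also removed both BCAT1 calls and the pgc1 call in the first comparison. BCAT1 was called in 4 settings in hypoxia + ketamine against normoxia + ketamine.

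**Figure D1:**
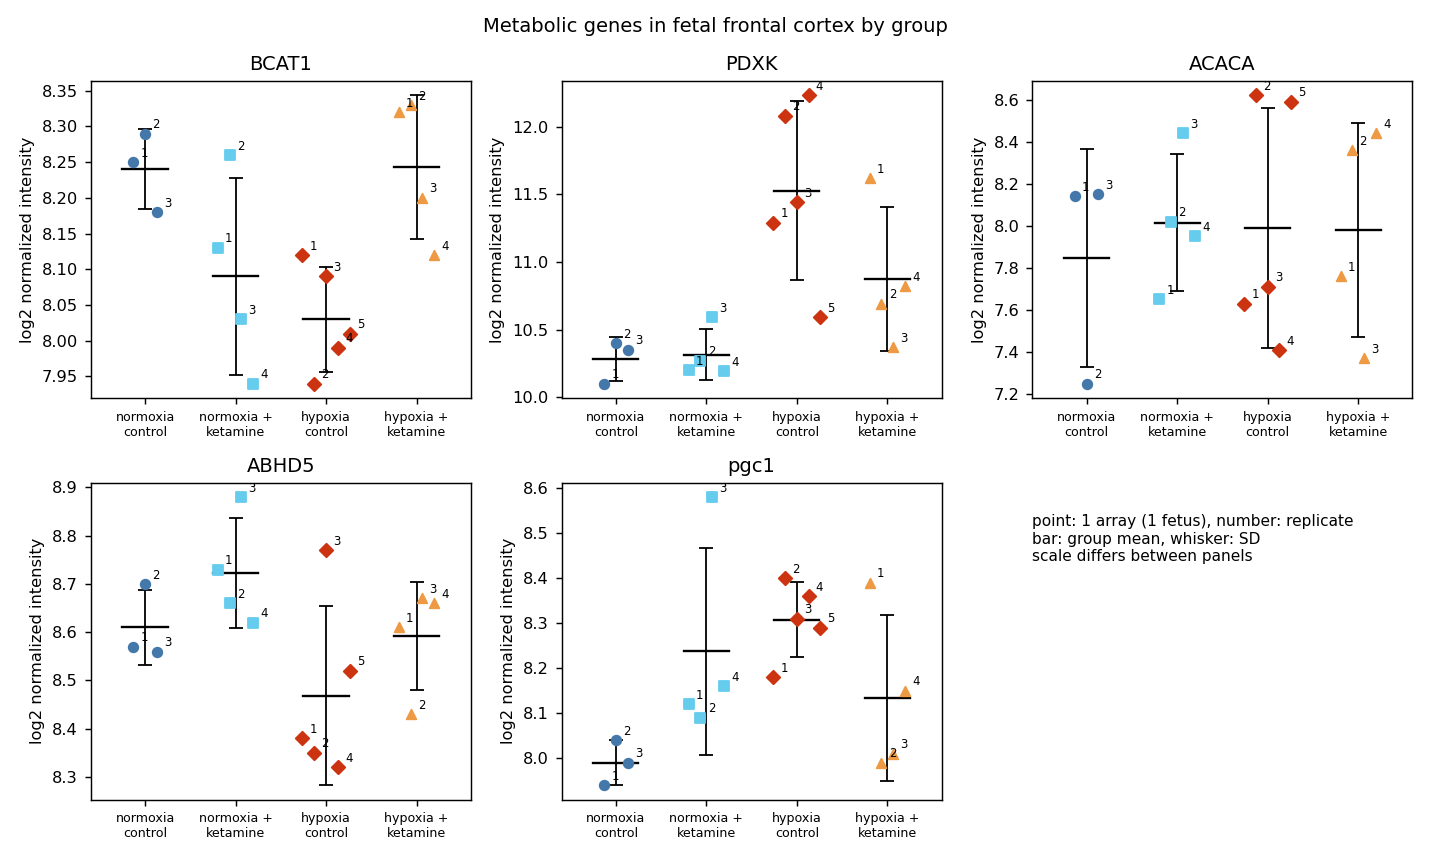
Log2 normalized intensity of the main probe of BCAT1, PDXK, ACACA, ABHD5 and pgc1 (vertical axes, each on its own scale) in the 4 groups (horizontal axis), with 1 point for each array, its replicate number, the group mean as a bar and the SD as whiskers. The hypoxia control arrays of PDXK, at 10.59 to 12.23, all lie above the normoxia control arrays, at 10.1 to 10.4, while ACACA spreads within each group over more than the distance between groups.

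PDXK, the vitamin B6 kinase, had the largest differences of the 5 genes in the 3 comparisons that involve hypoxia, and the smallest, 0.03, in normoxia + ketamine against normoxia control. The log2 intensity on the normoxia control arrays was 10.1, 10.4 and 10.35. On the normoxia + ketamine arrays it was 10.2, 10.27, 10.59 and 10.19. These 7 arrays without hypoxia lay within a narrow band. On the hypoxia control arrays it was 11.29, 12.08, 11.44, 12.23 and 10.59, and on the hypoxia + ketamine arrays 11.62, 10.69, 10.37 and 10.82. Every hypoxia control array was thus above every normoxia control array, but replicate 5 stood only just above them, level with the highest normoxia + ketamine array.

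The hypoxia control mean of PDXK was 11.52 ± 0.66 (SD, n = 5) and its normoxia control mean was 10.28 ± 0.16 (SD, n = 3), a log2 difference of 1.24 with a standard error (SE) of 0.32, or 2.36-fold. It was 1.47 without hypoxia control replicate 5 and 1.3 without replicate 1, and 1.43 and 1.07 within the 2 slides. The hypoxia + ketamine mean, 10.88 ± 0.53 (SD, n = 4), was below that of hypoxia control by a log2 difference of -0.65 (SE 0.29), and the groups overlapped. It was -0.71 without hypoxia control replicate 1 and -0.83 under median scaling. Without hypoxia control replicate 5 the difference was -0.88, and it ran from -0.9 to -0.47 over the arrays left out, with the smallest size without hypoxia control replicate 4. Ketamine without hypoxia left PDXK at 10.31 ± 0.19 (SD, n = 4), a log2 difference of 0.03 (SE 0.33) from normoxia control.

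The hypoxia effect in the ketamine arms was tested for PDXK, with the reservation given above. The limma SE and P also draw on the spread within the hypoxia control and normoxia control arrays that chose PDXK, while the exact test does not. Hypoxia + ketamine exceeded normoxia + ketamine by 0.56 on the log2 scale (SE 0.31, 95% interval -0.1 to 1.22), with all 4 hypoxia + ketamine arrays above the normoxia + ketamine mean and 3 of them above every normoxia + ketamine array. This was not past the threshold (limma P = 0.089, adjusted P = 0.772; two-sided exact permutation test, p = 0.057, where 4 against 4 arrays allow no p below 0.029). It was called in a fit of only those 2 groups, without hypoxia control replicate 5 (0.56) and without hypoxia + ketamine replicate 3 (0.73). Without hypoxia + ketamine replicate 1, the highest of its group, it was 0.31, and under median scaling it was 0.22, neither past the threshold. With hypoxia control replicate 1 counted as normoxia + ketamine it was 0.37, and within slides it was 0.92 and 0.21. The difference between the hypoxia effects with and without ketamine was -0.68 (SE 0.44).

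The named genes whose levels followed PDXK most closely over the 16 arrays, out of 639 genes well above background on every array, were MTHFD2 (Pearson r = 0.94, Spearman rho = 0.88), CD14 (r = 0.92, rho = 0.77) and NFKBIA (r = 0.86, rho = 0.88). MTHFD2 is a mitochondrial enzyme of folate metabolism, CD14 a lipopolysaccharide co-receptor of monocytes and microglia, and NFKBIA the inhibitor that NF-κB itself induces. The arrays fall into groups that differ in all 4 genes, so these values are a description. With each group's mean taken out, r was 0.87 for MTHFD2, 0.82 for CD14 and 0.66 for NFKBIA, and without the 2 arrays farthest from the PDXK median it was 0.87, 0.85 and 0.87. MTHFD2 on the hypoxia control arrays was 8.04, 8.22, 7.66, 8.59 and 7.42, so that replicate 4 was the highest and replicate 5 the lowest, as for PDXK. In hypoxia + ketamine it was 8.05, 7.65, 7.45 and 7.51, again highest in replicate 1, the replicate with the highest PDXK.

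**Figure D2:**
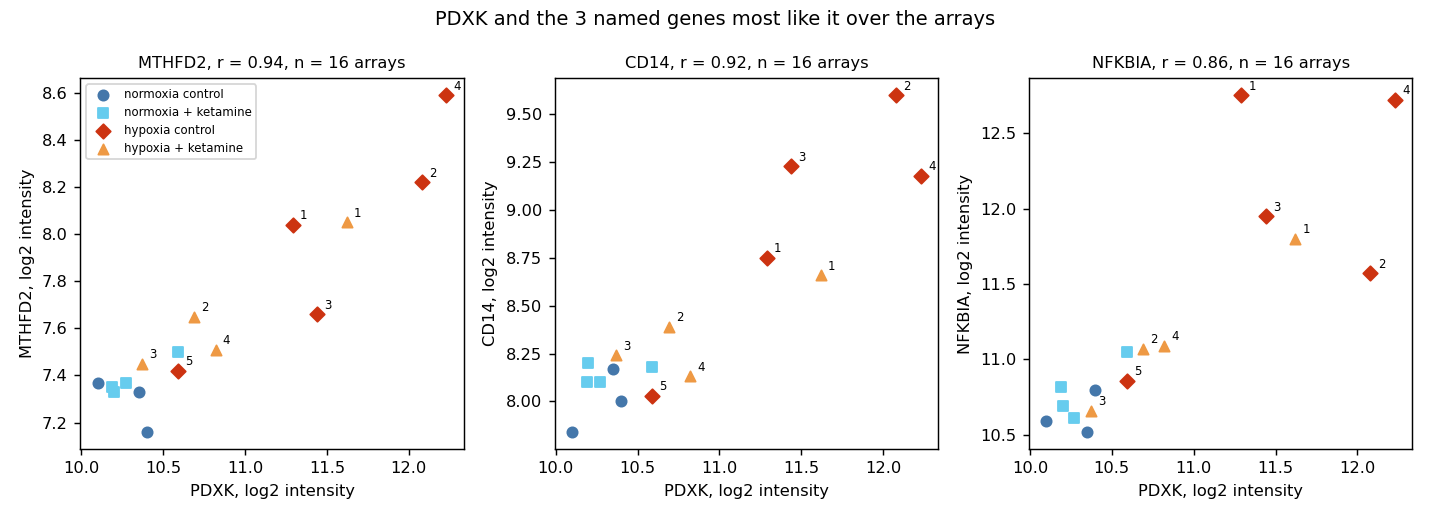
Log2 intensity of MTHFD2, CD14 and NFKBIA (vertical axes) against that of PDXK (horizontal axis), 1 point for each of 16 arrays, with replicate numbers on the hypoxia arrays. Hypoxia control replicate 5 lies among or near the normoxia arrays in all 3 panels, and hypoxia + ketamine replicate 1 lies among the other hypoxia control arrays for MTHFD2.

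CD14 belongs to the microglia and macrophage markers, of which 3 of 14 were named on the array and 2 were well above background on every array. Their summed level on the linear scale ran from 500 to 603 on the normoxia control arrays and from 568 to 645 with ketamine alone. It ran from 565 to 1190 on the hypoxia control arrays and from 519 to 663 when ketamine preceded hypoxia. CD14 itself was higher in hypoxia control than in normoxia control by 0.95 (SE 0.25) and was called, and in hypoxia + ketamine it was below hypoxia control by -0.6, also called. ITGAM, another of the 3, differed between hypoxia control and normoxia control by -0.01 (SE 0.096) and FCGR1A by 0.35 (SE 0.2), neither called. ITGAM is the dim marker of the 3, well above background on only 4 of 16 arrays. FCGR1A was called in hypoxia + ketamine against hypoxia control at -0.46 (SE 0.18). For the endothelial list, with 6 of 11 markers named, the sum ran from 1990 to 2190 on the normoxia control arrays, from 1720 to 2050 with ketamine alone, from 2130 to 4610 on the hypoxia control arrays and from 1820 to 2770 when ketamine preceded hypoxia. Of these 6, 1 was called higher and 1 lower in hypoxia control than in normoxia control. SELP, the adhesion molecule P-selectin, well above background on 12 of the 16 arrays, was higher by 2.54 (SE 0.63), and OCLN, a tight junction protein, was lower, at -0.38 (SE 0.15). PECAM1 (-0.12), KDR (-0.09), SELE (-0.07) and FLT1 (0.1) were not called, though SELE was well above background on 0 of 16 arrays and FLT1 on 9. The astrocyte sum overlapped between all groups, at 40100 to 64100 in hypoxia control and 42800 to 52100 in normoxia control. GFAP, 1 of its 4 named markers, was called higher by 0.79 (SE 0.16). Each sum is led by its most intense markers. The astrocyte sum mainly follows AQP4 (mean log2 15.5 in hypoxia control, beside 10.68 for GFAP) and cannot show the GFAP difference. In the same comparison 1 of 3 red blood cell markers was called higher, AHSP by 0.89 (SE 0.34), and 1 of 4 choroid plexus markers lower, TTR at -4.3 (SE 1.6), while none of 4 neutrophil and none of 3 neuron markers was called. Of the neutrophil markers, CYBB was well above background on only 2 of 16 arrays and MMP9 on 0. The red blood cell sum was 10600 to 28400 on the normoxia control arrays and 9700 to 63200 on the hypoxia control arrays. It mainly follows HBB (mean log2 14.57 in hypoxia control, beside 8.31 for AHSP). The choroid plexus sum was 10900 to 82600 on the normoxia control arrays and 9490 to 34900 on the hypoxia control arrays. Without hypoxia control replicate 1 these calls remained for CD14 (1.01), SELP (2.37), OCLN (-0.42), GFAP (0.74), AHSP (1.18) and TTR (-3.95). FCGR1A (0.47) and the dim neutrophil marker CYBB (0.39) were then called too. In hypoxia + ketamine against hypoxia control, with all arrays, SELP (-1.74, SE 0.58) and GFAP (-0.54, SE 0.15) were called lower too. OCLN (0.43, SE 0.14) was called higher there. These calls also remained without hypoxia control replicate 1. AHSP (-0.6), CYBB (-0.33) and the choroid plexus marker IGF2 (-2.1) were then called lower as well. The part of these cells in the PDXK values was not tested. In RNA of cortex tissue, more cells of a type and more RNA per cell cannot be told apart. The study also counted cells staining for Iba-1, a macrophage and microglia marker, in cortex sections. It reports a higher density after hypoxia, which ketamine attenuated.

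BCAT1 differed by less. Its main probe had a pooled SD within groups of 0.098 and its other probe one of 0.17, beside a median of 0.14 over the probes well above background on every array. The main probe is printed on 5 spots of each array, whose SD within an array had a median of 0.075. On the normoxia control arrays the log2 intensity was 8.25, 8.29 and 8.18, and on the hypoxia control arrays 8.12, 7.94, 8.09, 7.99 and 8.01. All hypoxia control arrays were below all normoxia control arrays. On the hypoxia + ketamine arrays it was 8.32, 8.33, 8.2 and 8.12, within or near the range of normoxia control. These did not overlap with hypoxia control only before rounding, since hypoxia control replicate 1 also read 8.12. On the normoxia + ketamine arrays it was 8.13, 8.26, 8.03 and 7.94.

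The hypoxia control mean of BCAT1 was 8.03 ± 0.075 (SD, n = 5) and its normoxia control mean was 8.24 ± 0.055 (SD, n = 3), a log2 difference of -0.21 (SE 0.075). The hypoxia + ketamine mean, 8.24 ± 0.1 (SD, n = 4), was above hypoxia control by 0.22 (SE 0.068) and above normoxia + ketamine, 8.09 ± 0.14 (SD, n = 4), by 0.15 (SE 0.072). In fold terms hypoxia + ketamine was 1.16-fold hypoxia control and 1.11-fold normoxia + ketamine. Without hypoxia control replicate 1 the difference was -0.23 from normoxia control, and hypoxia + ketamine was above hypoxia control by 0.24. Under median scaling these were -0.21 and 0.24. The difference between hypoxia + ketamine and normoxia + ketamine ranged from 0.1 to 0.21 on leaving out 1 array, with 0.1 without normoxia + ketamine replicate 4. Within slides, hypoxia control minus normoxia control was -0.24 and -0.15, and hypoxia + ketamine minus hypoxia control was 0.3 and 0.13.

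The other BCAT1 probe, which shares no base with the main one, had the same signs in all 4 comparisons. Its log2 difference was -0.3 (SE 0.12) for hypoxia control against normoxia control, 0.2 (SE 0.11) for hypoxia + ketamine against hypoxia control, -0.2 (SE 0.12) for normoxia + ketamine against normoxia control and 0.1 (SE 0.11) for hypoxia + ketamine against normoxia + ketamine. Its groups overlapped in each. Over the 16 arrays the probes had r = 0.83 and rho = 0.88, and r = 0.77 with group means taken out.

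BCAT1 could be tested between normoxia + ketamine and normoxia control, which share no array with the contrast that chose it. The limma SE and P still draw on the spread within all 4 groups, those of the choosing contrast included. The exact test uses the arrays of the compared groups alone. Normoxia + ketamine was lower, with a log2 difference of -0.15 (SE 0.078, 95% interval -0.32 to 0.02), and 3 of its 4 arrays were below every normoxia control array. The difference was not past the threshold (limma P = 0.074, adjusted P = 1; two-sided exact permutation test, p = 0.17). With 4 against 3 arrays the exact test cannot go below 0.057. Without normoxia + ketamine replicate 2, the highest of its group, the difference was -0.21 and was called. The other probe gave -0.2 (limma P = 0.11, adjusted P = 1; two-sided exact permutation p = 0.11).

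The named genes most like BCAT1 over the 16 arrays were RABGGTB, a subunit of the enzyme that attaches lipid anchors to Rab proteins (r = 0.69), GABPA, a subunit of a transcription factor of nuclear genes for mitochondria (r = 0.68), and CRYAA, a lens crystallin (r = 0.67). With group means taken out these values were 0.38, 0.64 and 0.47. They are further from 1 than those of PDXK with its nearest genes.

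The probe named pgc1 was lowest in normoxia control. The main probe read 7.94, 8.04 and 7.99 on the normoxia control arrays and 8.12, 8.09, 8.58 and 8.16 on the normoxia + ketamine arrays. On the hypoxia control arrays it read 8.18, 8.4, 8.31, 8.36 and 8.29, and on the hypoxia + ketamine arrays 8.39, 7.99, 8.01 and 8.15. No array of normoxia + ketamine or hypoxia control fell within the normoxia control range, whereas 2 of the 4 hypoxia + ketamine arrays did.

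The pgc1 mean was highest in hypoxia control, at 8.31 ± 0.084 (SD, n = 5), and lowest in normoxia control, at 7.99 ± 0.049 (SD, n = 3). Normoxia + ketamine averaged 8.24 ± 0.23 (SD, n = 4) and hypoxia + ketamine 8.14 ± 0.18 (SD, n = 4). Hypoxia control exceeded normoxia control by 0.32 (SE 0.11) on the log2 scale, or 1.25-fold, and by 0.35 without hypoxia control replicate 1. Over the other settings this ran from 0.08, on the other probe, to 0.57, on processed signals scaled to the 75th percentile, with 0.3 under median scaling. Normoxia + ketamine exceeded normoxia control by 0.25 (SE 0.11), and by 0.13 without replicate 3 of normoxia + ketamine. Values without 1 array lay between 0.13 and 0.3. Hypoxia + ketamine differed from normoxia + ketamine by -0.1 (SE 0.11).

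The other pgc1 probe did not show the same pattern. Its log2 difference was 0.08 (SE 0.14) between hypoxia control and normoxia control and 0.15 (SE 0.14) between normoxia + ketamine and normoxia control, and its groups overlapped in all 4 comparisons. On the hypoxia control arrays it read 8.06, 7.84, 8.15, 8.1 and 8.06, so that replicate 2, the highest array of the main probe, was the lowest here. The probes correlated at r = 0.62 and rho = 0.6 over the 16 arrays, lower than for BCAT1, although they share 28 bases. PPARGC1A, on its separate probe, differed by -0.04 (SE 0.18) between hypoxia control and normoxia control and by 0.01 (SE 0.19) between normoxia + ketamine and normoxia control, and its r with the main pgc1 probe was -0.11. The array name pgc1 was matched to no gene of the reference list, so whether the 3 probes read the same transcripts is not settled here.

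**Figure D3:**
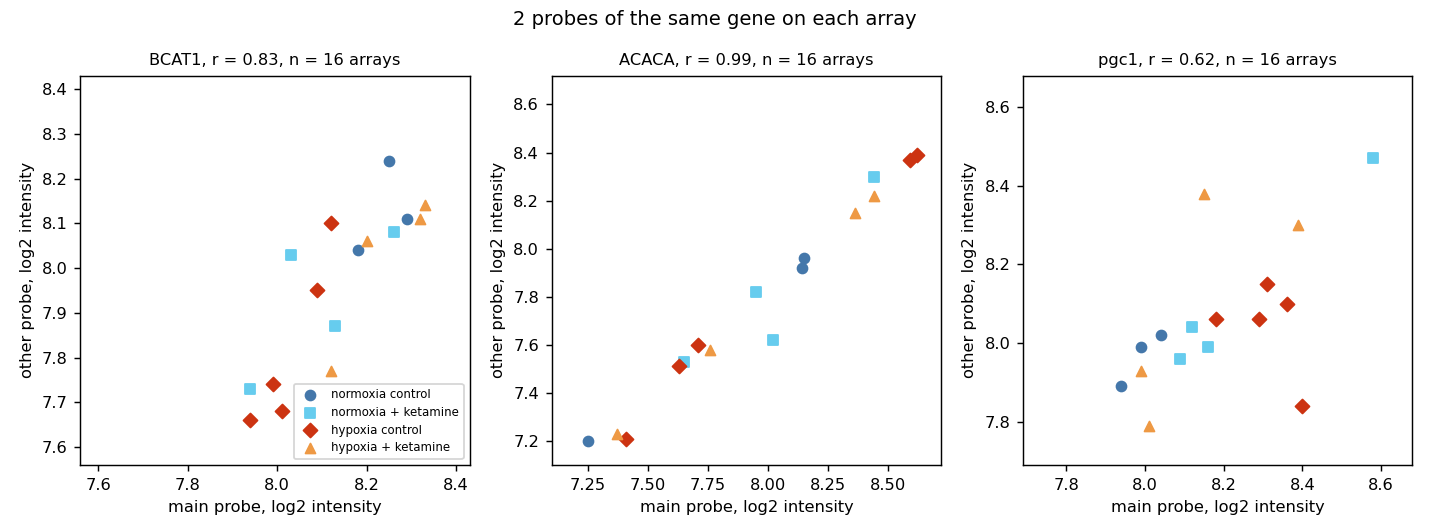
Log2 intensity of the other probe (vertical axis) against the main probe (horizontal axis) of BCAT1, ACACA and pgc1, 1 point for each of 16 arrays, with marker and colour for the group. The ACACA points lie on a line (r = 0.99), while for pgc1 (r = 0.62) hypoxia control replicate 2 (8.4 on the main probe, 7.84 on the other) and hypoxia + ketamine replicate 4 (8.15 and 8.38) depart most from a line.

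For pgc1 the comparison of hypoxia + ketamine with hypoxia control shares no array with the contrast that chose it. Its limma SE and P again draw on the spread within all groups, the choosing ones included, while the exact test does not. The main probe was lower in hypoxia + ketamine by a log2 difference of -0.17 (SE 0.1, 95% interval -0.39 to 0.04), with 3 of 4 arrays below every hypoxia control array, and was not past the threshold (limma P = 0.11, adjusted P = 0.624; two-sided exact permutation test, p = 0.11, where 4 against 5 arrays allow no p below 0.016). The other probe gave 0.05 (95% interval -0.22 to 0.33; limma P = 0.67, adjusted P = 0.929; two-sided exact permutation p = 0.65), with the opposite sign. Without hypoxia + ketamine replicate 1 the main probe gave -0.26 and was called, and it was also called without normoxia + ketamine replicate 3 (-0.17), an array of neither group that enters only the estimate of the spread. Without hypoxia control replicate 1 it gave -0.2, not past the threshold. The named genes most like the main probe were BMP6, a bone morphogenetic protein (r = 0.72), CDK2, a cell cycle kinase (r = 0.66), and LOC100037679 (r = 0.65). Among the 5 genes the pair with the highest r was PDXK and pgc1, at 0.63 over the arrays and 0.62 with group means taken out.

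ACACA varied strongly between fetuses of the same group and little between group means. On the normoxia control arrays its main probe read 8.14, 7.25 and 8.15, and on the normoxia + ketamine arrays 7.65, 8.02, 8.44 and 7.95. On the hypoxia control arrays it read 7.63, 8.62, 7.71, 7.41 and 8.59, and on the hypoxia + ketamine arrays 7.76, 8.36, 7.37 and 8.44. Each group held both low and high arrays, and the whole range was 1.37, or 2.59-fold. The pooled SD within groups was 0.49, larger than for 97.5% of the 9964 probes that were well above background on every array, whose median SD was 0.14. The other probe, reading nearly the same bases, followed it at r = 0.99 and r = 0.99 with group means taken out, so the spread between fetuses was present on both spots.

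ACACA averaged 7.84 ± 0.52 (SD, n = 3) in normoxia control and 8.02 ± 0.33 (SD, n = 4) with ketamine alone. With hypoxia it averaged 7.99 ± 0.57 (SD, n = 5) without ketamine and 7.98 ± 0.51 (SD, n = 4) with it. The log2 differences were 0.15 (SE 0.33) for hypoxia control against normoxia control, -0.01 (SE 0.3) for hypoxia + ketamine against hypoxia control, 0.17 (SE 0.34) for normoxia + ketamine against normoxia control and -0.03 (SE 0.32) for hypoxia + ketamine against normoxia + ketamine. Each was smaller than its SE, and leaving out arrays or changing the processing gave values of both signs for each, such as -0.18 to 0.36 for the first. Without hypoxia control replicate 1 the first 2 were 0.24 and -0.1. The named genes that followed ACACA most closely were SSTR2, a somatostatin receptor (r = 0.73), TUBA4A, a tubulin (r = 0.58), and IRF3, a transcription factor of interferon responses (r = 0.58). Leaving out the 2 arrays farthest from the ACACA median gave 0.63, 0.67 and 0.44.

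ABHD5, the lipase activator, overlapped between the groups in all 4 comparisons. It read 8.57, 8.7 and 8.56 on the normoxia control arrays and 8.73, 8.66, 8.88 and 8.62 with ketamine alone. Under hypoxia it read 8.38, 8.35, 8.77, 8.32 and 8.52 without ketamine and 8.61, 8.43, 8.67 and 8.66 with it. Of the hypoxia control arrays 4 of 5 lay below every normoxia control array, and replicate 3 lay above them all. The means were 8.61 ± 0.075 (SD, n = 3), 8.72 ± 0.12 (SD, n = 4), 8.47 ± 0.18 (SD, n = 5) and 8.59 ± 0.11 (SD, n = 4) in that order. The log2 difference was -0.14 (SE 0.098) for hypoxia control against normoxia control, 0.13 (SE 0.09) for hypoxia + ketamine against hypoxia control, 0.11 (SE 0.1) for normoxia + ketamine against normoxia control and -0.13 (SE 0.095) for hypoxia + ketamine against normoxia + ketamine. Without hypoxia control replicate 3 the first 2 were -0.22 and 0.2, and without replicate 1 they were -0.12 and 0.1. The named genes most like ABHD5 were BARX2, a homeobox factor (r = 0.81), PLAU, the urokinase protease (r = 0.71), and SCD5, a fatty acid desaturase (r = 0.69), and with group means taken out r was 0.72, 0.49 and 0.5.

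**Figure D4:**
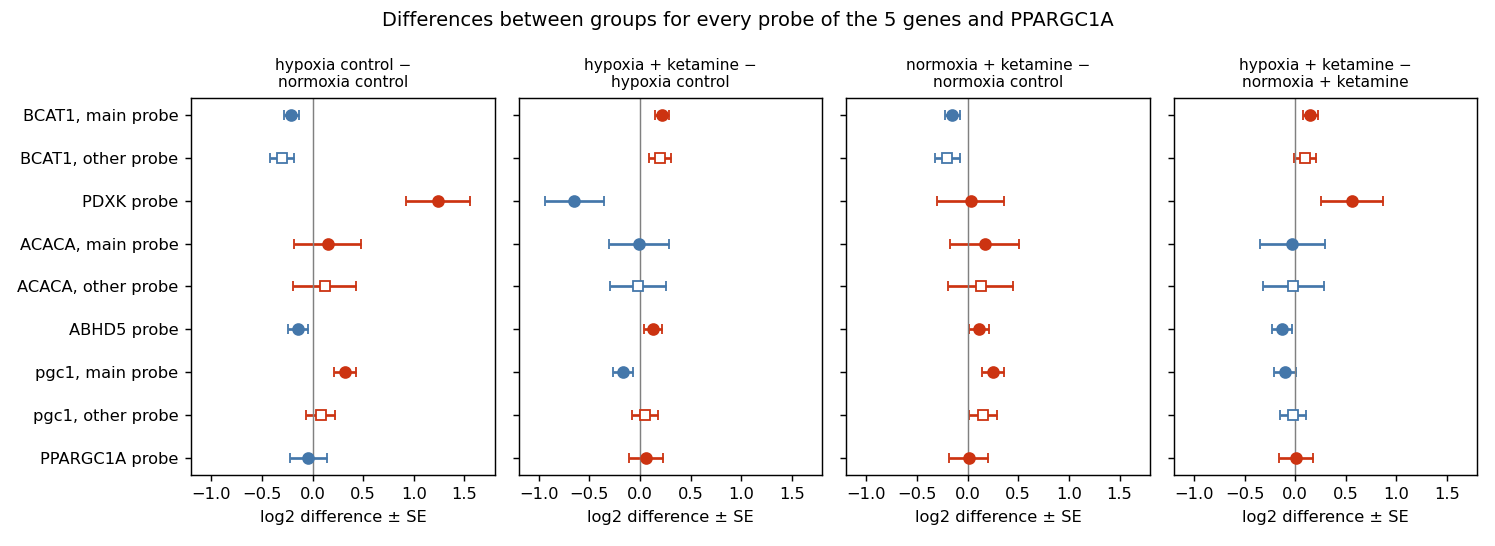
Log2 difference ± SE (horizontal axes) for every probe of the 5 genes and for PPARGC1A in the 4 comparisons, with filled circles for main or single probes, open squares for other probes, red for positive and blue for negative values. PDXK stands at 1.24 in hypoxia control against normoxia control, and every other probe lies between -0.3 and 0.32 there.

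In rank of group means, PDXK ran from hypoxia control (11.52) over hypoxia + ketamine (10.88) to normoxia + ketamine (10.31) and normoxia control (10.28). BCAT1 had hypoxia control lowest (8.03), then normoxia + ketamine (8.09), and hypoxia + ketamine and normoxia control both at 8.24. pgc1 had normoxia control lowest (7.99) and hypoxia control highest (8.31). Among the 4 pairs of groups compared, arrays overlapped for these genes except BCAT1 in hypoxia control against both groups at 8.24 and pgc1 in normoxia control against normoxia + ketamine and hypoxia control, and PDXK in hypoxia control against normoxia control. The BCAT1 gap between hypoxia control and hypoxia + ketamine was smaller than the last printed digit. For ACACA and ABHD5 all 4 of the compared pairs of groups overlapped. The share of all probes whose groups do not overlap was not counted. BCAT1, PDXK and pgc1 were also chosen on such contrasts, so nothing is read from these overlaps.

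The other genes of the same pathways were read from 4 lists, of which 50 genes besides the members were named on the array, 39 of them well above background on every array. In hypoxia control against normoxia control 4 of the 50 were called higher and 4 lower, where 7.98% of all probes were called, with a median log2 difference of -0.02 that was the same as over all probes. In hypoxia + ketamine against hypoxia control 3 were called higher and 3 lower, where 9.06% of all probes were called, with a median of 0.04 beside 0.02 over all probes. In normoxia + ketamine against normoxia control 1 was called higher and none lower, where 2.31% of all probes were called, and in hypoxia + ketamine against normoxia + ketamine none was called higher and 2 lower, where 6.86% were called, with medians of 0.01 and 0 beside 0 over all probes.

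Amino acid and vitamin B6 metabolism held 9 genes besides BCAT1 and PDXK. In hypoxia control against normoxia control 1 rose and 2 fell. MTHFD2 read 7.42 to 8.59 in hypoxia control (n = 5) and 7.16 to 7.37 in normoxia control (n = 3), a difference of 0.7 (SE 0.21, limma adjusted P = 0.394), and its other probe was higher by 0.5 (SE 0.17). SHMT1, the cytosolic enzyme that passes a carbon from serine to folate and needs pyridoxal phosphate, differed by -0.35 (SE 0.16), reading 7.87 to 8.39 against 8.39 to 8.61, and its other probe gave -0.27, not called. PSPH, the last enzyme of serine synthesis, read 8.95 to 9.24 in hypoxia control and 9.28 to 9.35 in normoxia control, a difference of -0.18 (SE 0.082) without overlap. PSPH in hypoxia + ketamine read 9.2 to 9.54, above hypoxia control by 0.22 (SE 0.075, limma adjusted P = 0.487). The call of PSPH against normoxia control was lost in 6 of 12 settings and without any of 9 single arrays (all 3 of normoxia control, normoxia + ketamine replicate 4, hypoxia control replicates 1, 2 and 5, and hypoxia + ketamine replicates 3 and 4), and that of SHMT1 in 3 and without any of 5 (normoxia control replicates 1 and 2, and hypoxia control replicates 2, 3 and 4), while MTHFD2 kept its call in all 12 settings and on leaving out each array.

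GLUD1, the mitochondrial enzyme that frees ammonia from glutamate, was called lower in hypoxia + ketamine than in normoxia + ketamine, at 12.03 to 12.51 against 12.41 to 13.14, a difference of -0.52 (SE 0.17, limma adjusted P = 0.534, 4 arrays against 4). Both of its other probes were lower too, by -0.47 (SE 0.19) and -0.41 (SE 0.17). The call held in all 12 settings and without each single array. In the same comparison 2 of the 3 named neuron markers were called lower, where 3.74% of all probes were. These were GRIN1, a subunit of the NMDA receptor, at -0.63 (SE 0.18) and NPY at -0.4 (SE 0.15). SST, the third, was higher by 0.09 (SE 0.15), not called. The linear sum of the 3 ran from 56300 to 76600 in hypoxia + ketamine and from 58100 to 71000 in normoxia + ketamine. It mainly follows SST (mean log2 15.8 in hypoxia + ketamine, beside 13.11 for NPY and 9.12 for GRIN1). The part of these markers in the lower values of GLUD1, and of CPT1A below, was not tested. BCAT2 and BCKDHA, the mitochondrial aminotransferase and a subunit of the dehydrogenase that act beside and after BCAT1, were on the array and were called in none of the 4 comparisons.

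Fatty acid, glycerolipid and sterol synthesis held 10 genes besides ACACA. SCD, the desaturase that makes monounsaturated fatty acids, read 8.49 to 9.02 in hypoxia control and 8.21 to 8.35 in normoxia control, and rose by 0.44 (SE 0.12, limma adjusted P = 0.32). In hypoxia + ketamine it read 8.22 to 8.52 and differed from hypoxia control by -0.33 (SE 0.11). ACSS2, which makes acetyl-CoA from acetate, followed the same order, with differences of 0.19 (SE 0.071) and -0.23 (SE 0.065), although its other probe gave 0.06 (SE 0.074), not called, and -0.22 (SE 0.068). The call of ACSS2 against normoxia control was lost under median scaling, with hypoxia control replicate 1 placed by its other label fields and without normoxia control replicate 2. ME1, the malic enzyme that supplies NADPH for fatty acid synthesis, was called higher in hypoxia + ketamine than in hypoxia control by 0.23 (SE 0.1), a call lost in 6 of 12 settings and without any of 6 single arrays (hypoxia control replicates 1, 2 and 4, and hypoxia + ketamine replicates 2, 3 and 4). FASN and ACLY, the enzymes after and before ACACA on the path to palmitate, were not called in any comparison. Both of these comparisons use the same 5 hypoxia control arrays, so a gene with opposite signs in them has not changed in independent data.

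Lipid droplets, lipolysis and fatty acid oxidation held 14 genes besides ABHD5. PPARG, a nuclear receptor that drives fat storage genes, read 8.11 to 8.35 in hypoxia control and 8.02 to 8.06 in normoxia control, a difference of 0.21 (SE 0.073), and differed by -0.24 (SE 0.067) between hypoxia + ketamine and hypoxia control. Its call against normoxia control was lost with hypoxia control replicate 1 placed by its other label fields and under median scaling. CPT1A, the carrier step that admits fatty acids to mitochondria and is inhibited by the product of ACACA, was called lower in hypoxia + ketamine (7.94 to 8.96) than in normoxia + ketamine (8.87 to 9.24), by -0.5 (SE 0.2, limma adjusted P = 0.675), and its other probe gave -0.51 (SE 0.2). The call was lost without normoxia + ketamine replicate 3 or hypoxia + ketamine replicate 2. The 4 perilipin genes on the array (PLIN1, PLIN2, PLIN3 and PLIN5), which coat lipid droplets and bind ABHD5 in several cases, were not called in any comparison, though PLIN3 was well above background on 0 of 16 arrays and PLIN5 on 15.

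PGC-1, mitochondrial biogenesis and respiration held 17 genes besides pgc1. In hypoxia control against normoxia control none rose and 2 fell, NDUFA12, a subunit of respiratory complex I, by -0.18 (SE 0.078), and PRKAA2, a catalytic subunit of AMP-activated kinase, by -0.15 (SE 0.066). PRKAA2 was well above background on only 11 of 16 arrays and is named outside the rule. VDAC1, the pore of the outer mitochondrial membrane, read 11.81 to 11.92 in hypoxia + ketamine and 11.47 to 11.83 in hypoxia control and rose by 0.23 (SE 0.084, limma adjusted P = 0.488). Of the 17 genes 15 had a higher mean in hypoxia + ketamine than in hypoxia control, 1 of them called, with a median of 0.06 beside 0.02 over all probes. The 15 include dim genes, such as UCP3, well above background on 0 of 16 arrays. The share of all probes with a higher mean was not counted, so nothing is read from this count. SLC25A5, an ADP/ATP carrier of the inner membrane, was the single call in normoxia + ketamine against normoxia control, at 14.68 to 14.86 against 14.43 to 14.65, a difference of 0.17 (SE 0.073, limma adjusted P = 1), lost in 5 of 12 settings, among them the second label of hypoxia control replicate 1, and without normoxia control replicate 1 or normoxia + ketamine replicate 3. NDUFA12 lost its call in 5 of 12 settings and without any of 5 single arrays (normoxia control replicate 3 and hypoxia control replicates 1, 2, 3 and 4). NRF1 and GABPA, factors through which PGC-1 is known to act, and the ATP synthase genes on the array were not called in any comparison, though NRF1 was well above background on only 6 of 16 arrays.

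**Figure D5:**
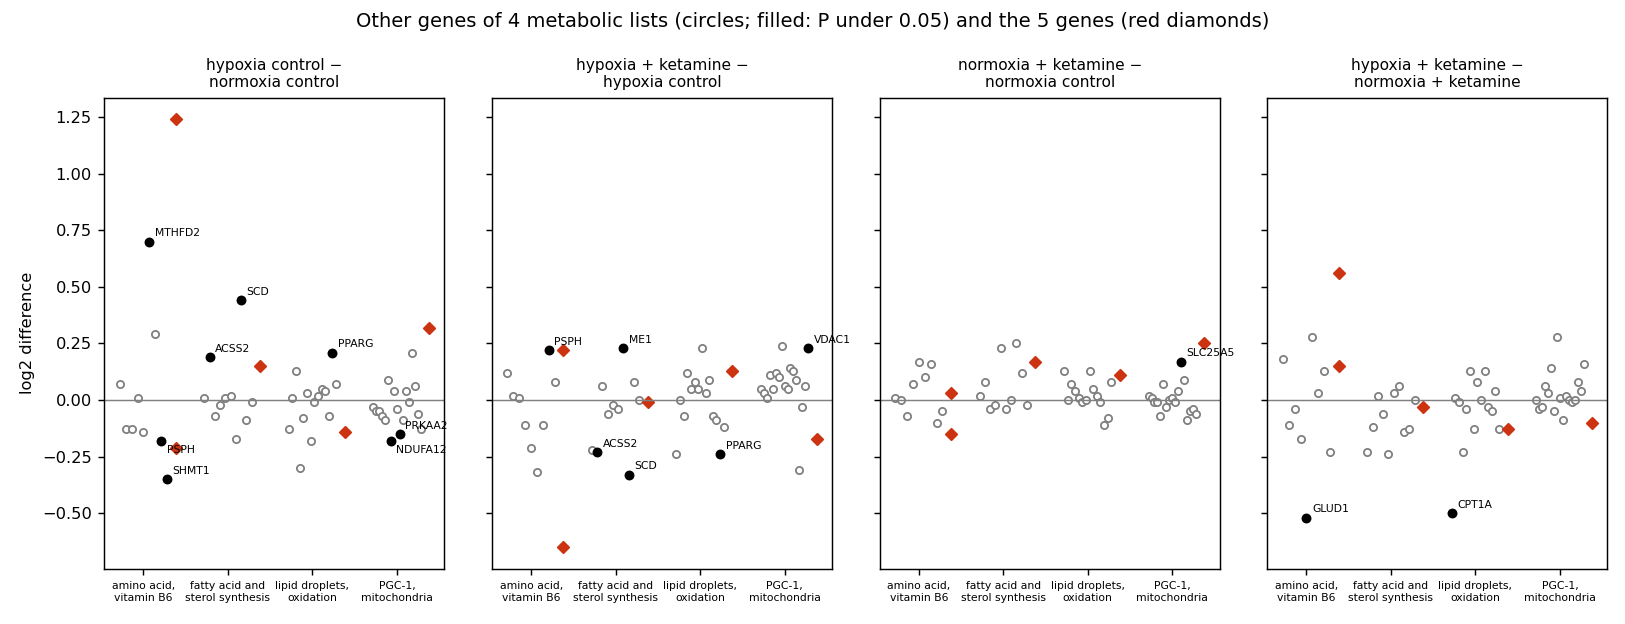
Log2 difference (vertical axis) of the other genes of 4 metabolic lists (horizontal axis; circles, filled and named where unadjusted P was under 0.05) and of the 5 genes (red diamonds, beside their own list) in the 4 comparisons. Most circles lie near 0, MTHFD2 at 0.7 and SCD at 0.44 are the highest circles in hypoxia control against normoxia control, and GLUD1 at -0.52 is the lowest circle in any panel.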

How the data were processed

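Frontal cortex RNA of 16 sheep fetuses was measured on 1-colour (Cy3) Agilent sheep arrays, 1 array a fetus, on 2 slides that each hold all 4 groups. The authors deposited scanner files with spot and local background intensity, not normalized, and a table of log2 values that the authors had background-corrected and quantile normalized with limma in R 2.15.1, used here as an alternative. From the mean spot intensity, background was corrected by normexp (offset 50), and the 15208 spots that are not controls, without 222 outlier spots over all arrays, were quantile normalized on the log2 scale and averaged by probe. Probes were named through the files and the RefSeq gene table. All 4 groups were fitted together in limma 3.58.1 (R 4.3.3), two-sided, called at an unadjusted P under 0.05 with Benjamini-Hochberg adjusted P beside it, and exact permutation tests over arrays used SciPy 1.17.1. The fit was tested on simulated data. A gene is given by its probe with the highest mean. From the lists, up to 4 called genes per direction with the largest difference, well above background on every array of a compared group, were named, and for each member the 3 named genes with the highest r. The members and lists were chosen with earlier results of these data known. P-values measure the spread between these fetuses. The number of arrays limits the precision.

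Alternatives were no background correction, processed signals (quantile or 75th percentile), median spot signals, median scaling, a filter on dim probes, blocks for slide or for replicate number, fits of the compared groups alone, the authors' values, array weights, hypoxia control replicate 1 under its second label, and each array left out. Whether equal replicate numbers pair the arrays is not settled. The r of deviations had a median of 0.02 (-0.16 to 0.48) over 21 same-number pairs. Over 74 pairs of different number and group the median was -0.02 (-0.38 to 0.29).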

Additional observations from a re-analysis of the deposited data

Results flagged for a closer look

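In 2 of 24 sets of 4 or 5 arrays examined, the probes of the 5 genes in each group other than normoxia control, 1 array stood apart by Dixon's criterion, which flags about 1 set in 20 by chance. Both sets were pgc1 in normoxia + ketamine, where replicate 3 read 8.58 on the main probe beside 8.09 to 8.16 on the other 3 arrays, and 8.47 on the other probe beside 7.96 to 8.04. The same array gave the highest ABHD5 value of all, 8.88, and the highest ACACA value of its group, 8.44.

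BCAT1 and the main pgc1 probe were flagged for the estimated difference between their hypoxia effects with and without ketamine. PDXK, with a larger but less precise estimate of -0.68 (SE 0.44), was not flagged. BCAT1 differed by 0.37 (SE 0.1) on the main probe, from -0.21 without ketamine to 0.15 with it, and by 0.4 (SE 0.16) on the other probe, from -0.3 to 0.1. The main pgc1 probe differed by -0.42 (SE 0.15), from 0.32 to -0.1, while the other pgc1 probe differed by -0.1 (SE 0.19). BCAT1 and pgc1 were chosen from contrasts that enter this difference, so no test is attached to it and the effects are not shown to differ. No probe of the array reached an adjusted P under 0.05 in a comparison of groups.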

How the results depend on the processing

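Median scaling reduced the probes called to 134 in hypoxia control against normoxia control, 112 in hypoxia + ketamine against hypoxia control, 56 in normoxia + ketamine against normoxia control and 324 in hypoxia + ketamine against normoxia + ketamine, and the list genes called to 2, 0 and 0 in the first 3. Benjamini-Hochberg adjustment left 0 probes and 0 list genes in all 4 (limma), beside 1197, 1359, 347 and 1029 probes at an unadjusted P under 0.05. In normoxia + ketamine against normoxia control a filter on dim probes left 226 probes called and array weights gave 565, with 2 list genes. On processed signals 5 (quantile) and 4 (75th percentile) list genes were called in hypoxia control against normoxia control and 0 (quantile) in normoxia + ketamine against normoxia control. With hypoxia control replicate 1 under its second label 5 were called in the first.

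Leaving out 1 array gave 4 to 8 list genes in hypoxia control against normoxia control (4 without hypoxia control replicate 2, 5 without normoxia control replicate 2 or 3), 5 to 8 in hypoxia + ketamine against hypoxia control, 0 to 3 in normoxia + ketamine against normoxia control (0 without normoxia control replicate 1 or normoxia + ketamine replicate 3, 2 without normoxia + ketamine replicate 2 or 4, 3 without hypoxia control replicate 3) and 2 to 5 in hypoxia + ketamine against normoxia + ketamine (4 without normoxia + ketamine replicate 2 or hypoxia + ketamine replicate 3, 5 without normoxia + ketamine replicate 4). It gave -0.21 to -0.1 for BCAT1 in normoxia + ketamine against normoxia control, -0.26 to -0.13 for pgc1 in hypoxia + ketamine against hypoxia control and 0.31 to 0.73 for PDXK in hypoxia + ketamine against normoxia + ketamine. The other pgc1 probe reversed that difference, at 0.05, and PDXK passed the threshold at 0.56 in a fit of the compared groups alone. The cause was not tested.

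With replicate number as a block these were -0.12, -0.18 and 0.56, none past the threshold, and the block gave 4 list genes in hypoxia + ketamine against normoxia + ketamine. The labels do not state the pairs it assumes. Deviations correlated above 0.1 in 6 of 21 same-number pairs and in 14 of 74 pairs of different number. These values cannot settle whether the numbers pair fetuses. The scalings moved the median of all probes by less than 0.1.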
